A study of Homo sapiens with 12 samples.

Results

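The 36 genes described here encode the heat shock chaperones of the cytosol, their co-chaperones, the mitochondrial and cytosolic chaperonins and a pair of heat shock factors. They were taken by symbol from the 27788 gene symbols of the deposited counts, and all 36 were listed in every library. The study used 2 human cancer cell lines in which GSTO1, the gene of the glutathione transferase omega 1, had been mutated with CRISPR-Cas9. Expression was measured in 3 libraries each of GSTO1 KO HCT116, wild-type (WT) HCT116, GSTO1 KO U-87 MG and WT U-87 MG cells. HCT116 is a colorectal carcinoma line and U-87 MG a glioblastoma line. Per the labels' protocols, Cas9 came from a lentivirus under blasticidin selection, the guide crRNA targeted exon 2 of GSTO1, and individual colonies were picked. The sources used here give neither the number of colonies behind the libraries nor whether the WT cells had received the non-targeting crRNA. No heat or other stress treatment is named in the labels.

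Chaperones bind unfolded or partly folded proteins and help them to reach or keep their fold. HSP70 proteins bind short hydrophobic stretches in a cycle of ATP hydrolysis that J-domain proteins start and exchange factors such as the HSP110 proteins reset, and HSP90 acts later on nearly folded clients such as kinases and steroid receptors. Chaperonins enclose a client in a chamber, in mitochondria the HSP60 ring with its HSP10 lid and in the cytosol the TRiC ring, which folds actin and tubulin. Many of these genes are transcribed through heat shock factor 1, which binds inverted repeats of the pentamer nGAAn, the heat shock element, and cancer cells often hold chaperones at high levels without heat.

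The genes lie on many chromosomes, and shared or overlapping sequence matters for reading the counts of several. In GENCODE release 44 (GRCh38), HSPA1A (chr6:31815543-31817946, plus strand) and HSPA1B (chr6:31827738-31830254, plus strand) are neighbouring copies. Of the 50-base stretches of the HSPA1A transcript, 75.1% also occur in HSPA1B. HSPD1 (chr2:197486584-197516737, minus strand) and HSPE1 (chr2:197500140-197503449, plus strand) lie on opposite strands, with HSPE1 inside the span of HSPD1, and their RefSeq starts face away from each other. For 20 of the 36 genes, over 5% of the 50-base stretches occur, on either strand, in transcripts of other genes. These 20 include HSPA1B (73.6%), CCT5 (54.9%), HSPE1 (48.2%), HSPD1 (27.1%) and TCP1 (26.0%). Antisense genes cover over 5% of the exon bases of 4 genes, the most in DNAJC7 (27.6%, CNP and NKIRAS2). RefSeq (GRCh38.p14) held a promoter window, 250 bases before to 50 after the start, for 32 of the 36 genes. A run of 3 pentamer units (GAANNTTCNNGAA or TTCNNGAANNTTC, either strand) were present in 4 of these 32 windows, or 12.5%, against 0.487% of the 27305 windows of all genes, and the 4 were HSPA8, CHORDC1, DNAJA1 and DNAJB6. A run of at least 2 units (GAANNTTC or TTCNNGAA, also counted inside the longer match) was present in 11 windows, or 34.4%, against 13.7% of all windows. A match describes the letters only and does not show binding. The sequences below are stretches of 100 bases upstream of the start of genes whose values carry the results, placed around the units, all 5′ to 3′ on the gene's own strand, with the heat shock element units in capitals.
HSPA1A, chr6:31815391-31815490, plus strand, 152 to 53 bases before the start: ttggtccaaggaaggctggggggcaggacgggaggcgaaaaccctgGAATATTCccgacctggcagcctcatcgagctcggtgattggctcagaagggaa
HSPA1B, chr6:31827587-31827686, plus strand, 151 to 52 bases before the start: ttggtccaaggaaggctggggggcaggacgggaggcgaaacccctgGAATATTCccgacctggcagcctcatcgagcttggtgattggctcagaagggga
HSPA8, chr11:123062137-123062236, minus strand, 100 to 1 bases before the start: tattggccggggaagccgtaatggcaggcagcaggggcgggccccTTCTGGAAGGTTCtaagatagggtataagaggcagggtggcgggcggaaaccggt
CHORDC1, chr11:90223050-90223149, minus strand, 100 to 1 bases before the start: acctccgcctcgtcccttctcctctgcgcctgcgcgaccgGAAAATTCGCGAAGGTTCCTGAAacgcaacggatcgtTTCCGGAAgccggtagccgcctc
HSPB8, chr12:119178797-119178896, plus strand, 134 to 35 bases before the start: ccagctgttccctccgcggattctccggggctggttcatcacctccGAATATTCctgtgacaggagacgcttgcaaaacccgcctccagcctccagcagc
TCP1, chr6:159789753-159789852, minus strand, 250 to 151 bases before the start: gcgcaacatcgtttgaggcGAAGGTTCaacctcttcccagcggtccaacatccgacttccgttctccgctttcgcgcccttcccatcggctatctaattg
The HSPA1A and HSPA1B stretches each held the same 8-base run, GAATATTC, and their 250-base upstream windows shared 235 bases in an alignment, an identity of 93.6%. CHORDC1 held the longest run shown, of 23 bases. The stretch between the RefSeq starts of HSPD1 and HSPE1 is 104 bases long, is printed on the plus strand because both genes start at its ends, and held no such run.
HSPD1 to HSPE1, chr2:197500275-197500378, plus strand: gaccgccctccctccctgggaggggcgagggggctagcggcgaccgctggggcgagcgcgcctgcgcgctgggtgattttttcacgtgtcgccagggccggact

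Libraries held between 17814142 and 28097179 counts. GSTO1 itself was lower in the KO libraries of both lines, at 17.1, 14.6 and 15.7 CPM (counts scaled to library size with TMM factors) in HCT116 KO against 63.9, 64.7 and 61.4 CPM in HCT116 WT, and at 25.02, 23.8 and 25.2 CPM in U-87 MG KO against 143, 142 and 117 CPM in U-87 MG WT. Of 10 markers of colorectal epithelium, 7 had a mean above 1 FPKM (fragments scaled to gene length and depth) in HCT116 and 1 in U-87 MG, and VIL1, CDX1 and LGALS4 were at or near 0 in HCT116. Of 10 markers of glioma and mesenchyme, 5 were above 1 FPKM in HCT116 and 7 in U-87 MG, and GFAP, SOX2 and S100B were at or near 0 in U-87 MG. Of 8 leukocyte markers, CD68 alone was above 1 FPKM in either line. U-87 MG WT replicate 3 stood apart from its group most, at a chi-square over degrees of freedom of 8.62 and 9.77 from the other WT libraries, which were 2.42 apart. The labels name no separate cultures for the libraries of a group, so p-values reflect only the spread among these libraries, possibly a technical one. Fewer cells of a kind and less RNA per cell cannot be told apart in bulk RNA.

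In WT cells most of the chaperones were more abundant in HCT116. Compared per gene length, 34 of the 36 genes had a higher mean FPKM in WT HCT116 than in WT U-87 MG. Of the 35 with a mean above 0.5 FPKM in both lines, 97.1% were higher in WT HCT116 with a median log2 ratio of 0.77, against 53.0% and 0.07 over 10924 genes. HSP90AB1, the constitutive HSP90, led in WT HCT116 at 1941 ± 61.0 FPKM (SD, n = 3), ahead of the constitutive HSP70 HSPA8 at 1597 ± 12.1 and of the inducible HSP90 HSP90AA1 at 1320.0 ± 51.4 FPKM. In WT U-87 MG the order was HSPA8 at 1103 ± 40.7, HSP90AA1 at 822 ± 16.6 and HSP90AB1 at 668 ± 21.4 FPKM, with no overlap between neighbours. In WT U-87 MG, the ranges of the TRiC subunits CCT2, CCT4, CCT8, CCT6A, CCT5 and TCP1 overlapped with the next in order, with means between 139.7 and 155 FPKM. The exceptions were the small heat shock proteins HSPB8 and CRYAB. HSPB8, which works with BAG3 in clearing aggregated proteins, averaged 2.02 ± 0.326 FPKM in WT HCT116 and 23.0 ± 0.858 FPKM in WT U-87 MG. CRYAB, the lens and muscle protein alpha-B crystallin, had no count in any of the 6 HCT116 libraries, where 3 counts would be 0.115 to 0.168 CPM, and 0.308 to 1.23 CPM in the 6 U-87 MG libraries. HCT116 libraries were single-end and U-87 MG libraries paired-end, so line and sequencing mode cannot be told apart in these levels.

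**Figure D1:**
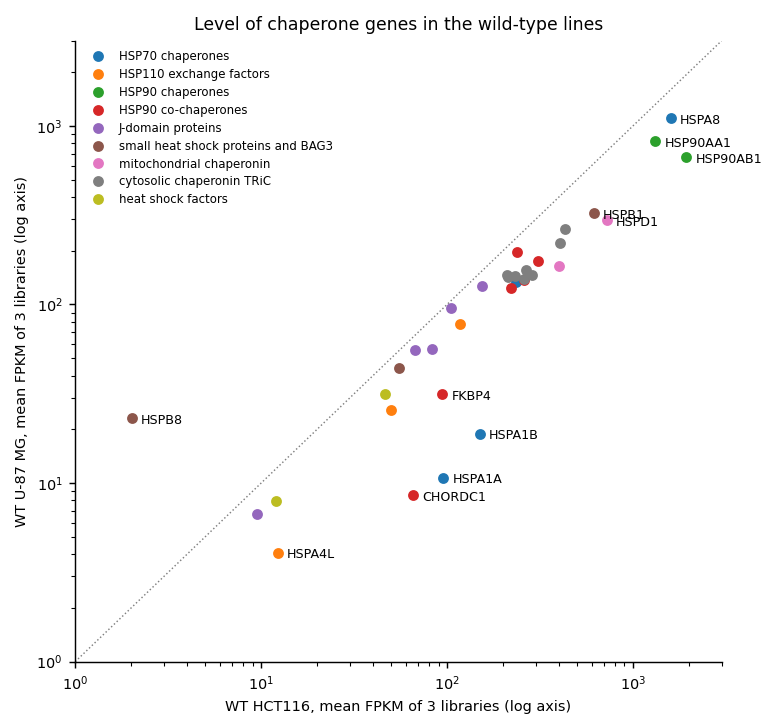
Mean FPKM (log axes) of the chaperone genes in WT HCT116 and WT U-87 MG cells, 3 libraries each, coloured by role, with the dotted line at equal levels and CRYAB left out because it was at 0 in HCT116. HSPB8 is the single plotted gene on the U-87 MG side of the line, at 2.02 FPKM in HCT116 and 23.0 FPKM in U-87 MG.

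In HCT116 most of the chaperone genes were lower in KO than in WT cells. All 35 tested genes had a negative log2 fold change (KO over WT), with a median of -0.51 against 0.01 over the 14068 genes tested. By the study's thresholds (adjusted p under 0.05, fold above 1.5 and mean FPKM above 0.5) 11 of the 35 fell and 0 rose. Of all genes tested, 11.9% were called, 4.07% lower and 7.82% higher. The study's restriction to protein-coding genes was not applied, so the shares given here run over all symbols tested. By the adjusted p alone, 32 of 35 were lower and 0 higher, where 57.3% of all genes passed, 28.1% lower and 29.2% higher. KO and WT libraries did not overlap for 31 of the 35, all lower in KO, where 61.6% of all genes did not overlap, 30.4% lower and 31.2% higher. The tests are edgeR's quasi-likelihood F-test with Benjamini-Hochberg adjustment over all genes tested. At an unadjusted p under 0.05 the count of higher genes was also 0, and DESeq2 and limma called none higher. The summed level of the 36 genes was 7646 ± 11.4 FPKM in KO and 11277 ± 149 FPKM in WT (SD, n = 3 each). They took 2.03 to 2.11% of the counts of the KO libraries and 2.88 to 2.98% of those of the WT libraries. The ribosomal RNA gene RNR2 moved the other way, at 1.36 to 1.54% of counts in KO and 0.981 to 1.06% in WT, and 11 of the 35 fell also when it was left out. Summed over the marker lists, epithelial markers held 1831 to 2020 FPKM in KO and 2047 to 2165 FPKM in WT, and glioma and mesenchyme markers 179.6 to 184 FPKM in KO and 109.7 to 113 FPKM in WT. Of the 7 tested epithelial markers CDH1 rose (0.86), CLDN7 (0.46) was higher and KRT8 (-0.13) and KRT18 (-0.18) lower by the adjusted p alone, and their median was 0.05. Of the 5 tested mesenchyme markers CD44 (0.90) and SPARC (1.04) rose, FN1 (0.38) was higher and VIM (-0.41) and NES (-0.45) lower by the adjusted p alone. The part of these shifts in the result was not tested.

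**Figure D2:**
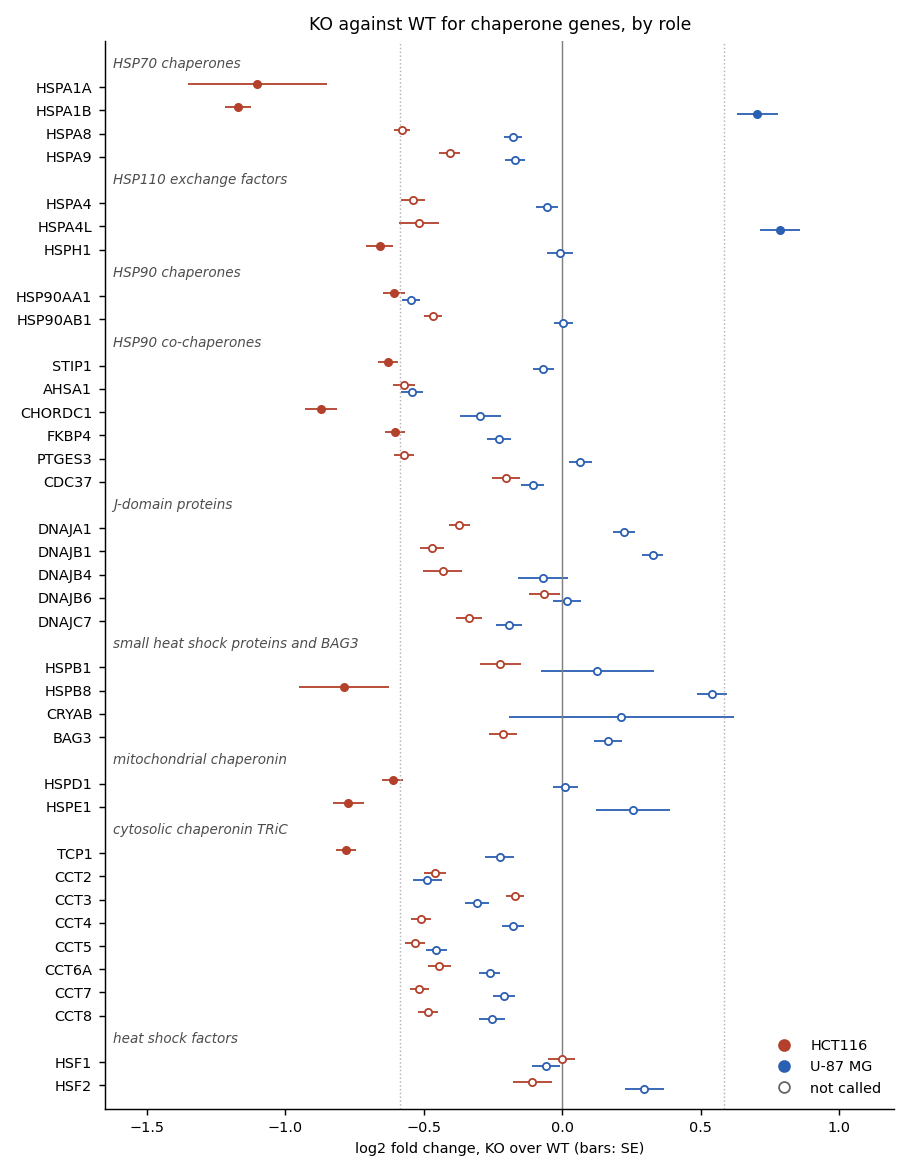
Log2 fold change (KO over WT) of each chaperone gene by role in HCT116 and in U-87 MG, with the standard error as bars and filled points for genes that passed all 3 thresholds. The dotted lines mark a 1.5-fold change, and all 35 tested genes lie below 0 in HCT116, where 11 are filled, against 2 in U-87 MG.

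Among these genes, the inducible HSP70 genes had the largest fall. HSPA1B, the stress-induced HSP70 of the cytosol, had 62.2, 58.7 and 61.6 CPM in HCT116 KO against 134, 137 and 140.1 CPM in WT, a log2 fold change of -1.17 ± 0.05 (SE, adjusted p = 9.6e-14, edgeR). The KO mean was 44.4% of the WT mean, and no library overlapped. Its copy HSPA1A had 0.893, 0.790 and 0.962 CPM in KO against 1.61, 1.85 and 2.31 CPM in WT (log2 -1.10 ± 0.25, SE, edgeR adjusted p = 9.0e-04). Its FPKM gave a far higher level, 41.5 ± 3.07 FPKM in KO and 95.5 ± 2.67 FPKM in WT (SD, n = 3 each). The sources used here do not say how counting and FPKM divided reads that align to both copies. The pair summed held 107 ± 6.10 FPKM in KO and 245 ± 5.54 FPKM in WT (SD, n = 3 each). That sum was 9.88 to 11.1% of the level of HSPA8 in KO and 14.9 to 15.8% in WT. HSPA8, the constitutive partner, had 2984, 2970.0 and 2904 CPM in KO against 4416, 4426 and 4384 CPM in WT. Its log2 fold change of -0.58 ± 0.03 (SE, edgeR adjusted p = 4.4e-12) fell just short of 1.5-fold, so it was not called. HSPA9, the HSP70 of mitochondria, was at -0.41 and passed the adjusted p alone.

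Among the HSP110 proteins, which exchange the nucleotide of HSP70, HSPH1 had 209, 207 and 189 CPM in HCT116 KO against 328, 327 and 298 CPM in WT and fell by 0.66 on the log2 scale (SE 0.05, edgeR adjusted p = 5.7e-10). HSPA4, the most abundant of the 3 at 77.5 ± 2.75 FPKM in KO and 117 ± 6.34 FPKM in WT (SD, n = 3 each), had 329.6, 327 and 305 CPM in KO against 483, 477 and 436 CPM in WT (log2 -0.54). HSPA4L had 45.1, 42.1 and 36.6 CPM in KO against 59.7, 61.8 and 54.5 CPM in WT (log2 -0.51). Neither of the last pair reached 1.5-fold, and their libraries did not overlap.

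Of the HSP90 genes, HSP90AA1 had 3413, 3415 and 3124 CPM in HCT116 KO against 5219, 5101 and 4834 CPM in WT (log2 -0.61 ± 0.04, SE, edgeR adjusted p = 7.8e-11). This call rested on single libraries, since the value was -0.57 without KO replicate 3 and -0.58 without WT replicate 1. HSP90AB1 had 4293, 4276 and 4161 CPM in KO against 5996, 5927 and 5665 CPM in WT (log2 -0.47 ± 0.03), below the fold threshold. The co-chaperones of HSP90 were lower with them. STIP1, which hands clients from HSP70 to HSP90, had 494, 470.1 and 486 CPM in KO against 759, 757 and 726 CPM in WT (log2 -0.63). CHORDC1, an HSP90-binding protein, had 150.3, 137 and 128 CPM in KO against 265, 262 and 231 CPM in WT (log2 -0.87 ± 0.06, SE, edgeR adjusted p = 1.6e-10). FKBP4, an immunophilin of steroid receptor complexes, had 271, 266 and 269 CPM in KO against 409, 412 and 404 CPM in WT (log2 -0.60). For each of these 3 genes the KO libraries lay below all WT libraries. The ATPase activator AHSA1 and the co-chaperone PTGES3 (p23) were both at -0.57 and the kinase adaptor CDC37 at -0.20, all past the adjusted p alone. FKBP4 has the antisense gene ITFG2-AS1 over 6.27% of its exon bases, with 11 to 18 counts in the KO and 5 to 9 counts in the WT libraries of HCT116.

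The mitochondrial chaperonin pair fell together in HCT116. HSPD1 (HSP60) had 1197, 1159 and 1084 CPM in KO against 1790.4, 1756 and 1706 CPM in WT (log2 -0.61 ± 0.04, SE, edgeR adjusted p = 6.0e-11), and the value without KO replicate 3 was -0.58, under the fold threshold. HSPE1 (HSP10) had 74.0, 77.9 and 67.3 CPM in KO against 128, 127 and 118 CPM in WT (log2 -0.77 ± 0.06, SE, edgeR adjusted p = 5.2e-10). No KO library reached a WT library for either gene. Per length, the ratio of HSPD1 to HSPE1 was 1.88 to 2.14 in KO and 1.76 to 1.85 in WT. The readthrough gene HSPE1-MOB4 covers 34.5% of the exon bases of HSPE1 on the same strand and held 1 to 7 counts a library in HCT116.

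All 8 subunits of TRiC were lower in HCT116 KO past the adjusted p, and TCP1, its alpha subunit, was the one that fell by more than 1.5-fold. TCP1 had 410.5, 427 and 404 CPM in KO against 713, 714 and 707 CPM in WT (log2 -0.78 ± 0.04, SE, edgeR adjusted p = 6.0e-13). ACAT2, antisense to 19.3% of the exon bases of TCP1, also fell, at 34.1 ± 1.04 CPM in KO and 51.7 ± 1.04 CPM in WT (SD, n = 3 each, log2 -0.60). Since the sources used here do not name the strand setting of the counting, reads of the pair cannot be told apart where they overlap. CCT7, the most abundant subunit in WT, had 627, 606 and 619 CPM in KO against 902, 884 and 859.8 CPM in WT (log2 -0.51). CCT3, the most abundant in KO, had 853, 861 and 853 CPM in KO against 970.5, 962 and 954 CPM in WT, the smallest change of the 8 at -0.17. The other 5 lay between -0.44 and -0.53. The subunits thus did not shift in equal measure. Summed over TRiC the level was 1613 ± 14.7 FPKM in KO and 2297 ± 38.8 FPKM in WT (SD, n = 3 each). TCP1 made up 8.77 to 9.14% of that sum in KO and 11.1 to 11.4% in WT, and CCT3 21.4 to 22.1% in KO and 17.6 to 17.8% in WT. Assembled TRiC holds its subunits in equal number, and these shares are of RNA.

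**Figure D3:**
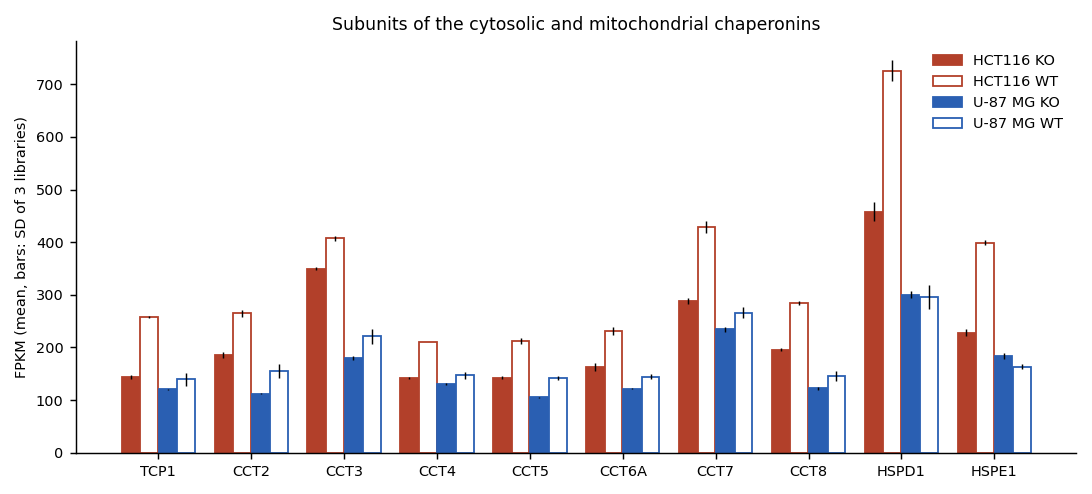
Mean FPKM (error bars: SD of 3 libraries) of the 8 TRiC subunits, HSPD1 and HSPE1, with KO filled and WT open, in HCT116 and in U-87 MG. In HCT116 the KO mean of TCP1 (144 FPKM) lies well below the WT mean (258 FPKM). In U-87 MG the means are closer (121 FPKM in KO and 139.7 FPKM in WT).

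J-domain proteins and the small heat shock proteins with BAG3 had medians of -0.37 and -0.22 in HCT116, and the heat shock factors -0.05. DNAJA1, the most abundant J-domain protein, had 323, 321 and 307 CPM in KO against 417, 410.4 and 402 CPM in WT (log2 -0.37), and DNAJB1 (HSP40), an inducible one, had 194, 199 and 209.8 CPM in KO against 274, 275 and 285 CPM in WT (log2 -0.47). Both passed the adjusted p alone, as did DNAJB4 (-0.43) and DNAJC7 (-0.34), and DNAJB6 did not (-0.06, adjusted p = 0.35, edgeR). HSPB1 (HSP27), the most abundant small heat shock protein, had 373, 400.2 and 479 CPM in KO against 451, 463 and 549 CPM in WT (log2 -0.22), with overlapping groups. HSPB8 fell at a low level, with 2.57, 2.95 and 2.47 CPM in KO against 5.14, 4.70 and 3.82 CPM in WT (log2 -0.79 ± 0.16, SE, edgeR adjusted p = 3.6e-04). BAG3, the partner of HSPB8 and HSP70, was at -0.21 and passed the adjusted p alone. The transcription factor HSF1 did not pass the test, with 117, 118 and 131 CPM in KO against 124, 121 and 122 CPM in WT (log2 0.00 ± 0.05, SE, edgeR adjusted p = 0.98). HSF2 was at -0.11 (edgeR adjusted p = 0.21). The 4 genes with 3 heat shock element units had a median log2 fold change of -0.47 and the other 28 with a window -0.51. Of these, 1 of the 4 and 9 of the 28 fell. The 28 include genes with a run of 2 units, among them HSPA1A, HSPA1B, HSPB8 and TCP1. The split thus does not separate genes with and without the element, and a link to the element was not tested.

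In U-87 MG the group did not move as one. Of 35 tested genes, 2 rose (HSPA1B and HSPA4L) and 0 fell, where 16.2% of all 13741 genes tested were called, 8.06% higher and 8.15% lower. By the adjusted p alone 7 were higher and 16 lower, where 59.3% of all genes passed, 29% higher and 30.2% lower, and at an unadjusted p under 0.05 the counts were the same 7 and 16. DESeq2 and limma called none lower. KO and WT libraries did not overlap for 8 higher and 17 lower genes, where 64% of all genes did not overlap, 31.8% higher and 32.2% lower. The median log2 fold change was -0.07, against 0.01 over all genes tested. The summed level was 5600 ± 12.8 FPKM in KO and 6132 ± 57.0 FPKM in WT (SD, n = 3 each), and the share of counts 1.40 to 1.42% in KO and 1.55 to 1.57% in WT. RNR2 took 0.419 to 0.435% of counts in KO and 0.254 to 0.323% in WT, and 2 of 35 rose also without it. CD68, the single leukocyte marker tested, rose (0.63, edgeR adjusted p = 8.3e-05) and carried the sum of its list, 299 to 311 FPKM in KO and 179 to 220.2 FPKM in WT, with PTPRC and CD3E at or near 0. Epithelial markers summed to 4.77 to 5.27 FPKM in KO and 8.35 to 8.97 FPKM in WT, where KRT8 fell (-1.12). Glioma and mesenchyme markers summed to 6382 to 6454 FPKM in KO and 6733 to 7552 FPKM in WT, where TNC fell (-0.78). The part of these shifts in the result was not tested.

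HSPA1B had 30.0, 33.1 and 32.0 CPM in U-87 MG KO against 20.9, 18.6 and 18.8 CPM in WT and rose by 0.70 on the log2 scale (SE 0.07, edgeR adjusted p = 3.3e-08). HSPA1A was not tested because it had 2 to 10 counts a library, and the pair summed held 48.8 ± 0.269 FPKM in KO and 29.6 ± 1.43 FPKM in WT (SD, n = 3 each). The sum was 4.92 to 4.96% of the level of HSPA8 in KO and 2.65 to 2.72% in WT. HSPA4L, the second gene that rose, had 34.0, 33.0 and 30.4 CPM in KO against 19.3, 18.6 and 18.5 CPM in WT (log2 0.79 ± 0.07, SE, edgeR adjusted p = 3.9e-09). Every KO library lay above every WT library for both genes. HSPB8 had 70.5, 75.3 and 70.5 CPM in KO against 51.5, 49.2 and 47.8 CPM in WT (log2 0.54), short of 1.5-fold. DNAJB1 (0.33), HSF2 (0.30), DNAJA1 (0.22) and BAG3 (0.17) were also higher past the adjusted p alone.

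The 16 lower genes of U-87 MG included HSP90AA1, AHSA1 and all of TRiC. HSP90AA1 had 2132, 2054 and 2095 CPM in KO against 3039, 3009 and 3118 CPM in WT (log2 -0.55 ± 0.03, SE, edgeR adjusted p = 2.4e-12), just short of 1.5-fold. HSP90AB1 had 1929, 1946 and 1927 CPM in KO against 1959, 1980.3 and 1848 CPM in WT (log2 0.00). Per length, HSP90AA1 stood at 0.819 to 0.859 of HSP90AB1 in KO and at 1.18 to 1.31 in WT, so HSP90AB1 was the higher gene in every KO library and HSP90AA1 in every WT library. AHSA1 was lower with HSP90AA1 (-0.54), and PTGES3 (0.07) and STIP1 (-0.07) did not pass the test. CHORDC1 had 28.2, 24.6 and 24.9 CPM in KO against 31.2, 30.2 and 34.2 CPM in WT (log2 -0.30, edgeR adjusted p = 0.0017). FKBP4 had 113, 111 and 110.2 CPM in KO against 129, 127 and 136 CPM in WT (log2 -0.23). Both were lower in every KO library than in any WT library. All 8 TRiC subunits were lower past the adjusted p, between -0.18 for CCT4 and -0.49 for CCT2, with none past 1.5-fold by edgeR. CCT2 had 227, 229 and 229 CPM in KO against 341, 331 and 287 CPM in WT, and made up 9.88 to 10.1% of summed TRiC FPKM in KO and 10.9 to 11.7% in WT. WT replicate 3, the library that stood apart, was the lowest WT library for all 8 subunits by CPM. TCP1 had 324, 322 and 321 CPM in KO against 395, 398 and 337 CPM in WT. Without that library CCT2 was at -0.56 and TCP1 at -0.30 (-0.23 with it). ACAT2, antisense to TCP1, had 10 to 14 counts in the KO and 122 to 162 counts in the WT libraries of U-87 MG. HSPD1 was at 0.01 and HSPE1 at 0.26 (edgeR adjusted p = 0.15), and without WT replicate 3 HSPE1 was at 0.12 (adjusted p = 0.020, edgeR). HSPB1 had 266, 291 and 299.96 CPM in KO against 216, 231 and 338 CPM in WT, where replicate 3 was again apart. Its log2 fold change was 0.13 (edgeR adjusted p = 0.64), and without that library 0.34 (edgeR adjusted p = 4.7e-13).

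**Figure D4:**
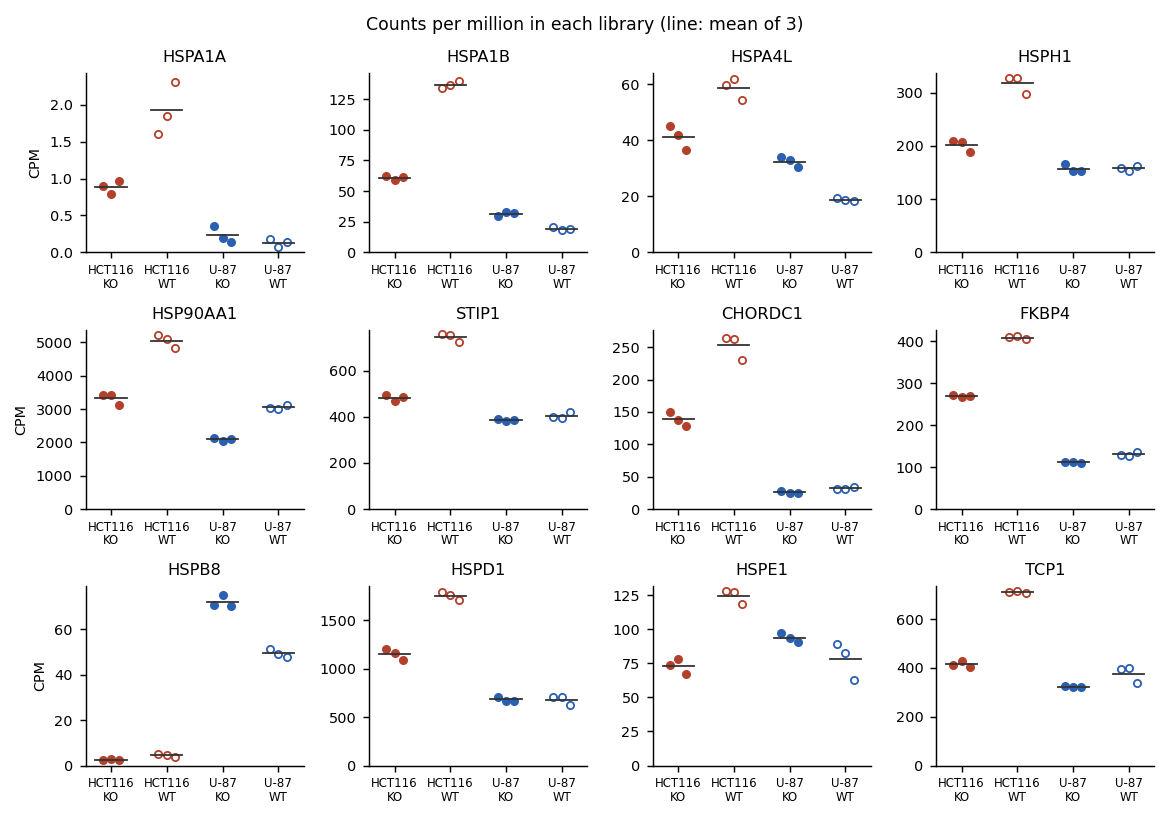
TMM-scaled CPM of the genes called in HCT116 or in U-87 MG, for each library, with KO filled and WT open. In HCT116 the KO points of HSPA1B (58.7 to 62.2 CPM) lie below the WT points, and in U-87 MG (30.0 to 33.1 CPM) they lie above them.

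The KO effect differed between the lines for 10 of the 36 genes. The difference was the log2 fold change in HCT116 minus that in U-87 MG, tested as the interaction in 1 edgeR fit of all 12 libraries, and the lines share no library. All 10 differences were negative and 0 positive, where 16.9% of the 15613 genes tested were called, 7.24% negative and 9.66% positive. By the adjusted p alone 25 were negative and 1 positive, where 41.9% of all genes passed, 20.5% negative and 21.4% positive, with the same counts at an unadjusted p under 0.05. DESeq2 and limma called none positive. HSPA1B differed by -1.87 ± 0.08 (SE, adjusted p = 5.2e-18) and HSPA4L by -1.29 ± 0.10 (SE, adjusted p = 5.0e-12). HSPB8 differed by -1.32, HSPE1 by -1.02 and DNAJB1 by -0.79. HSPH1 (-0.64), PTGES3 (-0.63), HSPD1 (-0.61) and DNAJA1 (-0.59) lay nearer the threshold. The call of HSPD1 was lost without HCT116 KO replicate 3 or U-87 MG WT replicate 3 (-0.58 in each), and that of DNAJA1 without HCT116 KO replicate 3, HCT116 WT replicates 1 or 2 or U-87 MG WT replicate 2 (-0.58 to -0.57). HSPA1A differed by -1.99 ± 0.67 (SE, adjusted p = 0.017) on 2 to 10 counts a library in U-87 MG, and was not called without U-87 MG KO replicate 1 (adjusted p = 0.17, edgeR) or WT replicate 2 (adjusted p = 0.059, edgeR). The difference of CCT3 was the 1 positive one, at 0.15 (adjusted p = 0.045, edgeR).

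The values behind these differences show which line moved. In U-87 MG, DNAJB1 had 307, 312 and 307 CPM in KO against 248, 242 and 248 CPM in WT, the reverse of its order in HCT116. DNAJA1 had 385, 379 and 375 CPM in U-87 MG KO against 331, 311 and 333 CPM in WT. Both J-domain proteins were thus higher in every KO library of U-87 MG and lower in every KO library of HCT116. HSPE1 had 97.2, 93.3 and 90.4 CPM in U-87 MG KO against 89.4, 82.7 and 62.7 CPM in WT. HSPD1 had 711, 667 and 667 CPM in U-87 MG KO against 703, 703 and 621 CPM in WT. The chaperonin lid thus showed no overlap in U-87 MG and its ring did. HSPH1 had 167, 153 and 153 CPM in U-87 MG KO against 159, 153 and 163 CPM in WT. PTGES3 had 306, 297 and 295 CPM in U-87 MG KO against 301, 283 and 275 CPM in WT, and in HCT116 389, 378 and 363 CPM in KO against 557, 562 and 558 CPM in WT. For both, the U-87 MG libraries overlapped and those of HCT116 did not.

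The most abundant gene of each role that showed no called difference had these values in U-87 MG. HSPA8 had 2591, 2610.2 and 2613 CPM in KO against 2906, 2871 and 3051 CPM in WT (log2 -0.18, difference -0.39). HSPA4 had 291, 276 and 291 CPM in KO against 303, 299 and 290.1 CPM in WT (log2 -0.06, difference -0.47). STIP1 had 391, 383 and 384 CPM in KO against 398, 395 and 421 CPM in WT (log2 -0.07, difference -0.55). These 3 differences passed the adjusted p alone, all more negative in HCT116. CCT7 had 454, 457 and 468 CPM in KO against 546, 541 and 507 CPM in WT (log2 -0.21). Its difference of -0.30 also passed the adjusted p alone. HSF1 had 70.9, 74.6 and 76.9 CPM in KO against 78.9, 75.4 and 77.1 CPM in WT (log2 -0.06). The difference of HSF1, at 0.07, did not pass. CCT7 did not overlap and HSF1 did.

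Of the 34 genes tested in both lines, 21 were negative in both and 13 negative in HCT116 and positive in U-87 MG. By the adjusted p alone, 16 were lower in both lines and 6 lower in HCT116 and higher in U-87 MG. Of all genes tested, 28.1% were lower in HCT116, and 30.2% were lower and 29% higher in U-87 MG. The shares of all genes for both lines jointly were not counted, so these joint counts have no background. HSP90AA1 and AHSA1 differed little between lines, by -0.05 ± 0.05 and -0.02 ± 0.06 (SE), as did the TRiC subunits CCT2 (0.04 ± 0.07) and CCT5 (-0.07 ± 0.05), and none of these 4 differences passed the test.

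**Figure D5:**
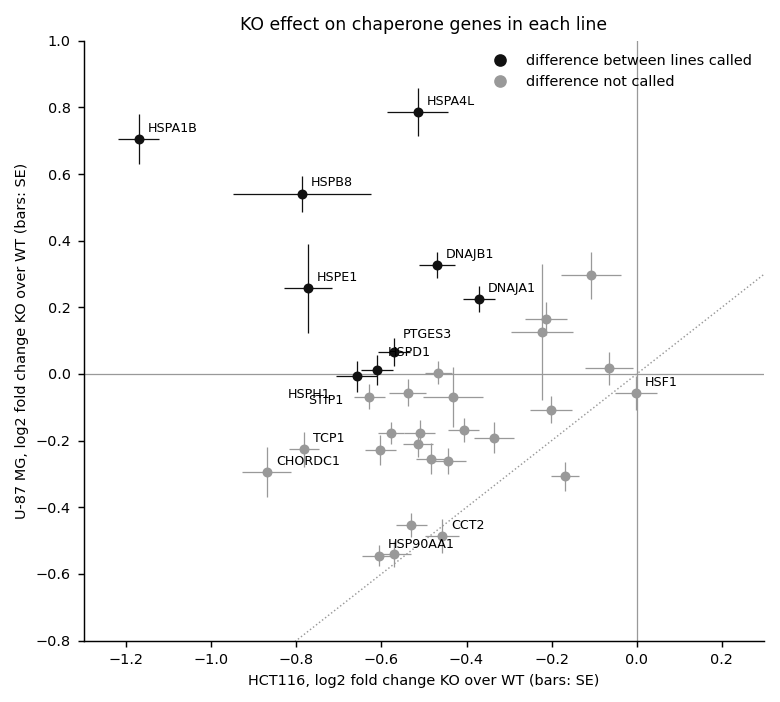
Log2 fold change (KO over WT) in HCT116 against that in U-87 MG for the 34 genes tested in both lines. Points are dark where the difference between lines was called and grey where not, with the dotted diagonal at equal changes. HSPA1B (-1.17 in HCT116 and 0.70 in U-87 MG) lies farthest from the diagonal, followed by HSPB8 (-0.79 in HCT116 and 0.54 in U-87 MG) and HSPA4L (-0.51 in HCT116 and 0.79 in U-87 MG).

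Other protein folding genes were counted in 9 further lists of the same kind. In HCT116, where 4.07% of all genes tested were called lower and 7.82% higher, the lists held these called genes. Of 11 tested further HSP70s and exchange factors, 3 fell, HSPA2 (log2 -1.34), HSPBP1 (-0.59) and HSPA13 (-0.59). Of 14 further HSP90 and HSP70 co-chaperones, CACYBP (-0.73) and TTC4 (-0.60) fell, and of 14 further J-domain proteins, the ribosome-associated DNAJC2 (-0.67). Of 13 subunits of prefoldin, which delivers actin and tubulin to TRiC, and other chaperonin cofactors, 0 were called, and 8 were lower and 1 higher by the adjusted p alone. Among 16 tubulins, actins and tubulin cofactors, the TRiC clients TUBB4B (-0.66) and TUBA1B (-0.59) fell and TUBA1A rose by count (0.93), while its FPKM was lower in KO (132) than in WT (146.5). None of 13 mitochondrial folding and protease genes or 16 endoplasmic reticulum chaperones was called, with 7 and 10 lower and 1 and 2 higher by the adjusted p alone, beside 28.1% of all genes lower and 29.2% higher. Of 14 other genes of the heat shock response, JMJD6 (-0.65), MRPL18 (-0.59) and ZFAND2A (-0.66) fell and HSF4, a heat shock factor known from the lens, rose (1.03). The medians of the 9 lists lay between -0.37 and -0.13.

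In U-87 MG, of 12 further HSP70s and exchange factors HSPA12A rose (1.72) and HSPA2 fell (-0.81). ST13, the HSP70-interacting protein Hip, fell (-0.93), as did HSPB6 (-1.20), ACTB (-0.61) and the mitochondrial iron-sulfur cluster co-chaperone HSCB (-0.88). Of 16 endoplasmic reticulum chaperones, DNAJB9 (1.08) and SIL1 (0.63) rose and DNAJC3 (-0.80) and SDF2L1 (-0.84) fell, and by the adjusted p alone 10 were higher and 3 lower. No further J-domain protein of 13 and no prefoldin gene or chaperonin cofactor of 13 was called, by edgeR, with 5 and 1 higher and 5 and 6 lower by the adjusted p alone. Of 14 other heat shock response genes, DEDD2 rose (0.69). Beside these counts, 8.06% of all genes tested in U-87 MG were called higher and 8.15% lower. By the adjusted p alone the shares of all genes were 29% higher and 30.2% lower.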

How the data were processed

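Libraries were made with a stranded mRNA kit (1 microgram of RNA, integrity number 8 or more, 12 PCR cycles) and read for 50 bp, per the labels' protocols. STAR 2.5.2 and GRCh38 are named in the submitters' processing notes. The deposited counts are whole reads per symbol (featureCounts 1.6.1) and the deposited FPKM values came from Cufflinks 2.2.1, per the same notes. The FPKM table held 24551 symbols. The sources used here name no settings for strand, multiply aligned reads or read pairs.

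From the counts, edgeR 4.0.16 (R 4.3.3; TMM, filterByExpr, robust quasi-likelihood F-test, Benjamini-Hochberg over all genes tested) compared KO with WT within each line, with 6 libraries a fit, and the KO effects between lines in 1 fit of 12. CPM are scaled by TMM factors, and log2 CPM used a prior count of 2. DESeq2 1.42.0 on the counts and limma 3.58.1 on log2(FPKM + 1) or log2(FPKM + 0.1) were alternatives. The scripts were tested on simulated counts. Values for every library are given for chaperone genes called in a line or between lines and for the gene of each role with the highest mean FPKM. From each further list up to 3 called genes a line with the smallest adjusted p are named, with log2 fold changes. ZFAND2A and SDF2L1 fall outside that rule and were chosen after their values were seen. The members and lists were chosen with earlier results of these data known. Intervals, floors and p-values cover counting error and the spread between libraries. A leukocyte marker of the list is not reported here by name.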

Additional observations from a re-analysis of the deposited data

Results flagged for a closer look

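For 10 chaperone genes the change in KO against WT cells differed between the lines by the test of the difference itself (edgeR interaction, log2 fold change in HCT116 minus that in U-87 MG). The differences were -1.99 for HSPA1A, -1.87 for HSPA1B, -1.29 for HSPA4L, -0.64 for HSPH1, -0.63 for PTGES3, -0.59 for DNAJA1, -0.79 for DNAJB1, -1.32 for HSPB8, -0.61 for HSPD1 and -1.02 for HSPE1. HSPA1A rests on 2 to 10 counts a library in U-87 MG. Line and sequencing mode, single-end for HCT116 and paired-end for U-87 MG, cannot be told apart in these differences.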

How the results depend on the processing

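The count of chaperone genes called was 11 in HCT116, 2 in U-87 MG and 10 for the difference between lines. With no fold threshold these were 32, 23 and 26. With a fold above 1.5 tested directly (glmTreat) they were 4 (HSPA1B, CHORDC1, HSPE1 and TCP1), 1 (HSPA4L) and 5 (HSPA1B, HSPA4L, HSPB8, HSPE1 and DNAJB1). Leaving out each library in turn gave 9 to 15 in HCT116, 2 to 2 in U-87 MG and 8 to 11 for the difference. DESeq2 gave 11, 2 and 10, and limma on log2(FPKM + 1) gave 14, 3 and 13. HSPB8 in HCT116 was at -0.50 with log2(FPKM + 1), under the fold threshold. Of all genes tested, HCT116 had 1100 higher and 572 lower by edgeR, and 567 higher and 502 lower with log2(FPKM + 1); the difference had 1508 and 1131 by edgeR and 1102 and 1113 with log2(FPKM + 1). No called chaperone gene changed sign under the alternatives run. To look for a shift shared by same-numbered libraries, each gene's log2 CPM was taken as a deviation from the mean of its own group. These deviations correlated between same-numbered KO and WT libraries by 0.03, 0.02 and 0.14 in HCT116. In U-87 MG they correlated by 0.03, 0.00 and -0.01. The 0.14 belonged to the HCT116 replicate 3 libraries, while pairs with replicate 3 on 1 side were at -0.09 to -0.05. Replicate 3 also stood apart within both HCT116 groups (chi-square over degrees of freedom 5.82 and 5.65 in KO, 3.77 and 3.58 in WT). The other libraries were 1.82 apart in KO and 1.49 in WT. The main fits did not model a shift shared by same-numbered libraries. With a replicate block, which does, the counts were 11, 2 and 10. Summing the counts of HSPA1A and HSPA1B gave 10 of 34 in HCT116, an alternative chosen after seeing the data, as was leaving out RNR2. HSPA1A in U-87 MG and CRYAB in HCT116 had too few counts to test. With 3 libraries a group, calls near 1.5-fold move with single libraries.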
